A study of Chlorocebus aethiops with 36 samples.

Results

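The genes that copy DNA and divide the cell were followed in the livers of African green monkeys given an oligonucleotide against the microRNA miR-33. The set held 41 genes, of 19775 with a probe set assigned to 1 symbol alone, and comprised 22 genes of S phase, 3 of G1 and the G1/S transition, and 16 of mitosis. Each gene was read from 1 probe set, the one with the highest mean over all 36 arrays. Liver biopsies came from 12 male animals, of which 6 received anti-miR-33 and 6 a control anti-miR, both injected subcutaneously (5 mg/kg). Biopsies were taken before dosing (week -5, chow diet, called baseline), after 4 weeks of dosing (still chow) and at week 12, when the animals had eaten a diet high in carbohydrate with medium cholesterol for 8 weeks, which gave 6 groups of 6 arrays. The baseline arrays name no arm, and the arm of each was taken from the later labels of the same animal. The week 4 array of control animal 1 carries the label of the later diet although its title puts it at week 4, and it was kept there. All animals received an oligonucleotide by week 4, and dosing, diet and passing time moved together from baseline to week 12, so their parts in a change over time cannot be told apart.

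miR-33 is a microRNA encoded within the genes of the SREBP transcription factors, and it represses genes of cholesterol export such as ABCA1. In human and mouse cells it has also been reported to target the G1 regulators CDK6 and CCND1 (cyclin D1). A cell that leaves rest first raises G1 cyclins, then the E2F-driven genes that make nucleotides and build the replication machinery, and last the kinases, spindle proteins and checkpoint proteins of mitosis. Hepatocytes of an adult liver are mostly at rest, so transcripts of these genes are usually scarce in that tissue.

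The values were log2 RMA values on a human array, so a probe that mismatches the monkey transcript reads low. Changes were read within a probe set, and a level set against a common cutoff says how bright the probe set was, not how abundant the transcript. The array medians lay between 4.42 and 4.51. All 12 hepatocyte markers were above the background cutoff described below, and their mean per array lay between 12.25 and 12.97. The week 4 arrays carry a run of array numbers of their own, whereas baseline and week 12 share 1 run, so week 4 and that run cannot be told apart. The number of arrays limits the precision of every value. In bulk liver, fewer cells of a type and less RNA per cell cannot be told apart.

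Most of the mitosis genes lay near background, and about as large a share of the S phase genes as of all genes did. The cutoff was the 90th percentile of 82 olfactory receptor genes, which are not known for expression in liver, and stood at 5.43 on the log2 scale. By it, 12 of 22 S phase genes (54.5%), 1 of 3 G1 genes and 14 of 16 mitosis genes (87.5%) were near background, against 49.7% of all 19775 genes. The S phase genes above it were RRM1 and RRM2 (the subunits of ribonucleotide reductase), MCM2, MCM4 and MCM7 (of the replicative helicase), GINS1 and GINS2 (of its GINS complex), CDT1 (which loads the helicase), RFC4 (of the clamp loader) and FEN1 (the flap endonuclease). The mitosis genes above it were BIRC5 (survivin, of the chromosomal passenger complex) and CDC20 (an activator of the anaphase-promoting complex). Of these S phase and mitosis genes, those with further probe sets passed by their brightest alone, except MCM7 (second at 6.35). The second probe set lay at 4.40 for RRM1, 4.18 for RRM2, 5.30 for MCM4, 5.19 for GINS2, 4.35 for CDT1, 4.65 for FEN1 and 4.85 for BIRC5. POLE, the catalytic subunit of DNA polymerase epsilon, lay just under the cutoff at 5.41.

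A gene was tested where its mean reached the median of all probe sets, 4.46, which 30 of the 41 genes did: 20 of S phase, 2 of G1 and 8 of mitosis. PLK1, Polo-like kinase 1, passed narrowly at 4.46, and the untested genes of highest mean were UHRF1 and AURKB, at 4.25 and 4.24. The 11 untested genes were CDC6, UHRF1, CCNE2, CCNA2, CCNB1, TOP2A, BUB1B, AURKA, AURKB, TPX2 and KIF11. None of them reached the background cutoff on any of the 36 arrays, the highest value being 4.91 for CCNA2 (cyclin A2). TOP2A, the topoisomerase that unlinks chromosomes, stayed between 3.22 and 3.83 and KIF11, a spindle kinesin, reached 3.20 at most. The 16 tested genes near background, which include TYMS, PCNA, CDK1 and MKI67, were measured on the lower part of the array's scale.

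**Figure D1:**
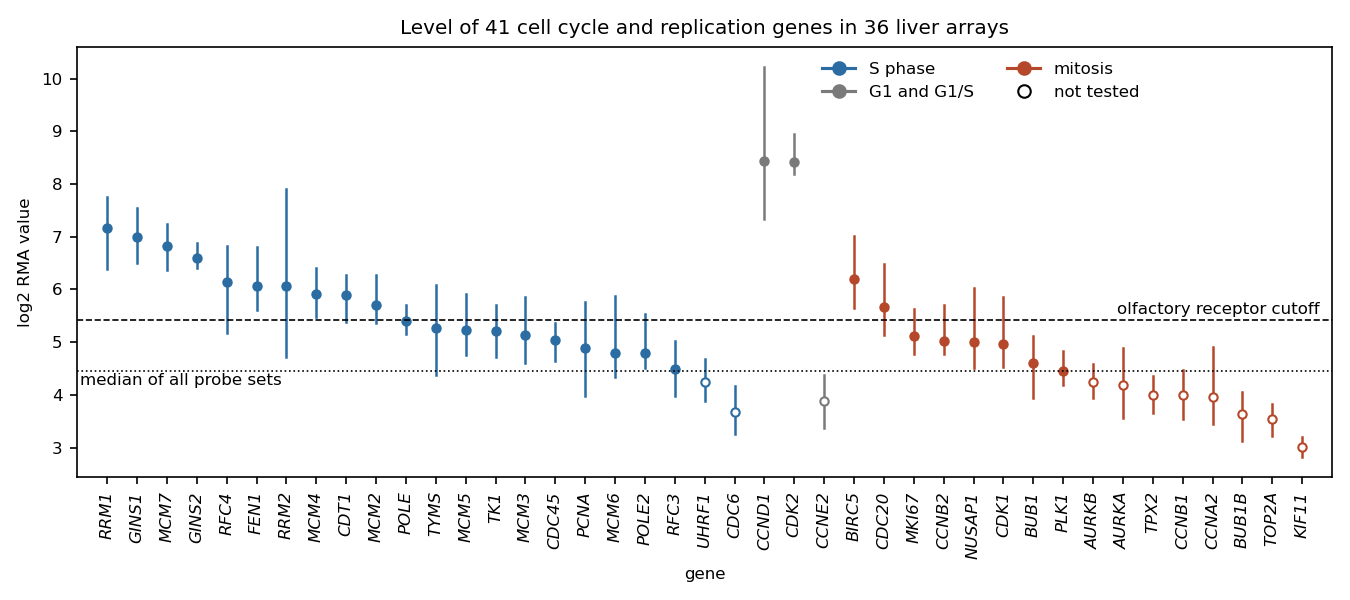
Log2 RMA level of the 41 genes, 1 probe set each, over 36 arrays, ordered by class and mean. Points are means over all arrays, lines run from the lowest to the highest array, and open points mark genes not tested. The dashed line is the olfactory receptor cutoff (5.43) and the dotted line the median of all probe sets (4.46); 14 of the 16 mitosis genes lie under the dashed line.

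From baseline to week 12, with both arms averaged, 9 of the 30 tested genes changed at an adjusted p below 0.05 (limma, Benjamini-Hochberg adjustment over all 13634 genes). That is 30% of them, close to the 27.4% of all tested genes that changed. By direction, 7 of the 9 were higher at week 12 (TYMS, RRM2, PCNA, GINS1, CDK1, MCM2 and POLE2) and RRM1 and MCM7 were lower, whereas 10.9% of all genes were higher and 16.5% lower. By class, 6 of 20 S phase genes were higher and 2 lower, and 1 of 8 mitosis genes was higher and none lower, while 0 of the 2 G1 genes passed. The median difference was 0.07 on the log2 scale over the S phase genes and 0.05 over the mitosis genes, against -0.01 over all genes tested. Over the 10 S phase genes above background it was -0.02, with 4 of 10 above 0. With the 3′ minus 5′ value of the labelled RNA as a covariate, the medians were 0.09 for S phase and 0.20 for mitosis genes, the opposite order. Whether the classes differed from each other or from the rest was not tested.

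Among the enzymes that supply nucleotides, TYMS and RRM2 were higher at week 12. TYMS, thymidylate synthase, ran from 4.37 over a median of 5.03 to 5.41 at baseline, from 4.52 over 5.08 to 5.66 at week 4 and from 5.16 over 5.52 to 5.96 at week 12 in anti-miR-33 livers. In control livers it ran from 4.67 over 5.07 to 5.16 at baseline, from 4.85 over 5.20 to 6.08 at week 4 and from 5.25 over 5.75 to 6.03 at week 12. Each of the 12 animals had more TYMS at week 12 than at baseline, and in control livers the values of these times did not overlap. The difference was 0.63 ± 0.11 on the log2 scale (SE, adjusted p = 6.92e-05), or 1.55-fold.

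RRM2, the small subunit of ribonucleotide reductase and the one that cycling cells make in S phase, gave the largest difference of the set. In anti-miR-33 animals 1 to 6 it measured 5.73, 5.16, 6.41, 5.15, 4.96 and 5.37 before dosing, 5.57, 5.57, 6.97, 5.23, 4.72 and 5.71 at week 4, and 7.02, 5.87, 6.44, 6.20, 6.76 and 5.79 at week 12. In control animals 1 to 6 it measured 6.63, 5.16, 5.46, 5.34, 6.78 and 5.01 before dosing, 6.48, 5.49, 6.32, 7.36, 6.97 and 5.74 at week 4, and 7.90, 6.29, 6.13, 6.94, 7.80 and 5.71 at week 12. All 12 animals were higher at week 12 than at baseline, and the animals differed among themselves at each time by more than 1 log2 unit. The difference was 0.97 ± 0.23 (adjusted p = 0.00144), or 1.96-fold. It lay between 0.88 and 1.06 with any 1 animal left out.

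RRM1, the large subunit of the same enzyme, went the other way. It ran from 7.31 over a median of 7.47 to 7.76 at baseline, from 6.54 over 6.89 to 7.17 at week 4 and from 6.87 over 7.08 to 7.23 at week 12 in anti-miR-33 livers, where baseline did not overlap the later times. In control livers it ran from 7.31 over 7.56 to 7.63, from 6.38 over 6.84 to 7.43 and from 6.60 over 7.14 to 7.70 at these times, with overlap. The difference from baseline to week 12 was -0.41 ± 0.10 (adjusted p = 0.00158) and 11 of 12 animals were lower. The other probe set of RRM1, whose mean of 4.40 lay under the filter, gave 0.28 in the opposite direction, so the direction of RRM1 rests on the choice of probe set. The second probe set of RRM2, with a mean of 4.18, gave 0.01. For TYMS, a second probe set at 5.00 gave 0.37 and another at 3.71 gave 0.01.

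Of the replicative helicase, MCM2 was higher at week 12 and MCM7 lower. MCM2 ran from 5.46 over a median of 5.64 to 5.78 at baseline, from 5.37 over 5.75 to 5.83 at week 4 and from 5.44 over 5.72 to 5.91 at week 12 in anti-miR-33 livers. In control livers it ran from 5.44 over 5.54 to 5.72, from 5.59 over 5.73 to 5.91 and from 5.58 over 6.02 to 6.27. The times overlapped in both arms, 10 of 12 animals were higher, and the difference was 0.23 ± 0.06 (adjusted p = 0.00438). MCM7 had medians of 6.98, 6.78 and 6.54 in anti-miR-33 livers and of 7.02, 6.87 and 6.82 in control livers at the 3 times. It was lower at week 12 by -0.32 ± 0.07 (adjusted p = 0.000675) in 10 of 12 animals, and its second probe set gave -0.20. MCM3, MCM4, MCM5 and MCM6, the other helicase subunits measured, had differences of 0.11, 0.02, 0.03 and 0.08, none past the threshold. GINS1 of the GINS complex was higher by 0.31 ± 0.08 in 11 of 12 animals (adjusted p = 0.00234), with medians of 6.84, 6.77 and 7.30 in anti-miR-33 livers and of 7.01, 6.89 and 7.20 in control livers.

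PCNA, the sliding clamp of the DNA polymerases, ran from 3.98 over a median of 4.77 to 4.89 at baseline, from 4.53 over 4.66 to 4.99 at week 4 and from 4.87 over 5.11 to 5.33 at week 12 in anti-miR-33 livers. In control livers it ran from 4.57 over 4.70 to 5.45, from 4.57 over 4.91 to 5.19 and from 4.70 over 5.16 to 5.76. Baseline and week 12 overlapped in both arms, in anti-miR-33 livers narrowly, and 11 of 12 animals were higher at week 12, by 0.42 ± 0.10 (adjusted p = 0.00222). POLE2, the accessory subunit of DNA polymerase epsilon, was higher by 0.20 ± 0.07 in 10 of 12 animals (adjusted p = 0.0462), a call kept in only 3 of the 12 fits that each left out 1 animal.

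CDK1, the kinase that drives entry into mitosis, was the mitosis gene that changed by the chosen probe sets. It ran from 4.53 over a median of 4.84 to 4.93 at baseline, from 4.73 over 4.89 to 5.18 at week 4 and from 4.77 over 5.00 to 5.54 at week 12 in anti-miR-33 livers. In control livers it ran from 4.62 over 4.80 to 5.15, from 4.68 over 5.00 to 5.03 and from 4.84 over 5.13 to 5.85. The times overlapped, 11 of 12 animals were higher at week 12, and the difference was 0.36 ± 0.09 (adjusted p = 0.00263). A second probe set, whose mean of 4.23 lay under the filter, gave 0.33. Further CDK1 probe sets, with means of 3.74 and 2.90, gave -0.0083 and 0.07. MKI67, the proliferation antigen Ki-67, had the same mean at both times (difference 0.00 ± 0.08) and TOP2A, not tested, differed by 0.02. BIRC5, CDC20, CCNB2, NUSAP1, BUB1 and PLK1 did not pass the threshold. CCNB2 stood at -0.06 by its chosen probe set but at 0.31 by its second, whose mean was 4.66, so its change rests on the choice of probe set.

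Taken arm by arm, 5 members passed in each from baseline to week 12. In anti-miR-33 animals GINS1 (0.48), TYMS (0.56) and PCNA (0.47) were higher and MCM7 (-0.41) and RRM1 (-0.45) lower, where 16.3% of all genes passed (6.87% higher and 9.42% lower). In control animals TYMS (0.70), MCM2 (0.37), RRM2 (1.07), POLE (0.22) and CDK1 (0.45) were higher, where 9.51% of all genes passed (2.85% higher and 6.66% lower). TYMS passed in both arms. The test of the difference between arms in this change called 0 members and 0% of all genes, with 299 genes at an unadjusted p below 0.05. Its smallest p among members belonged to POLE, with 0.22 in control animals and a difference between arms of -0.32 ± 0.10 (adjusted p = 0.999).

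**Figure D2:**
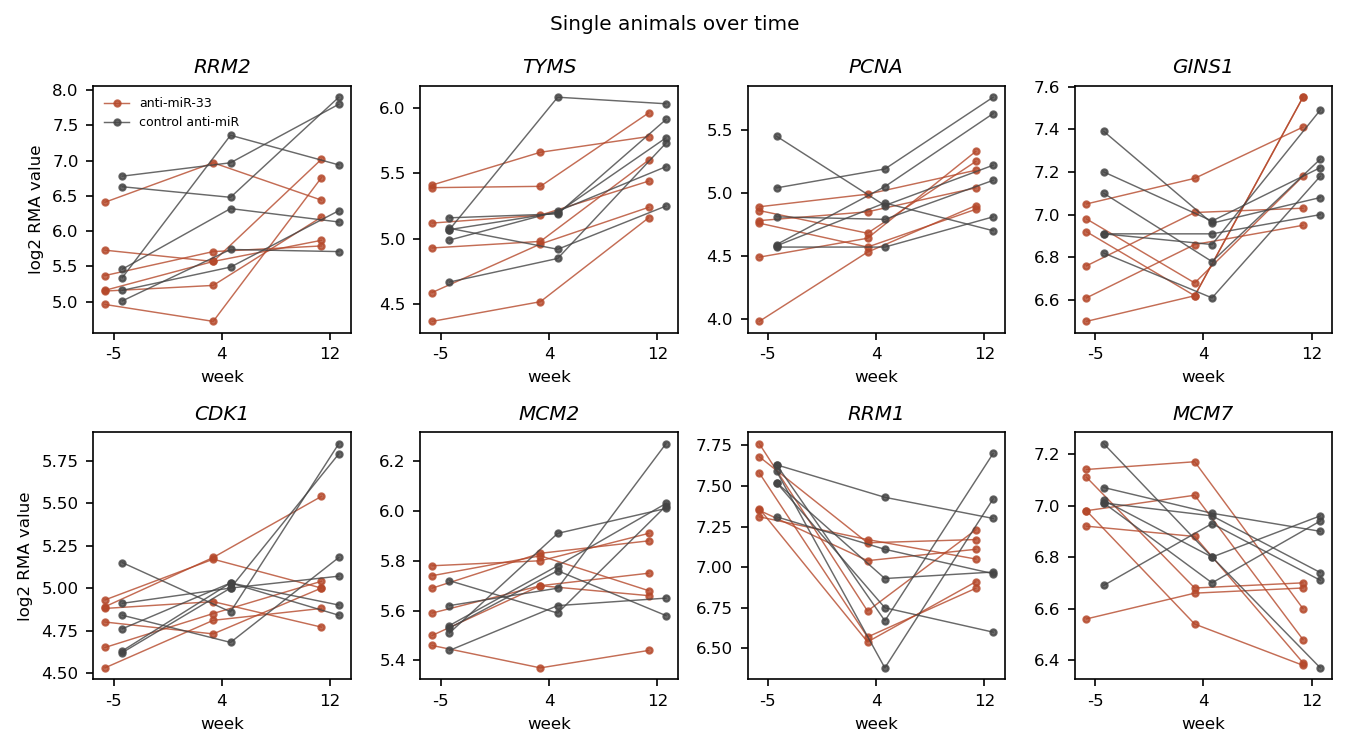
Log2 RMA values of 8 named members in each animal at weeks -5, 4 and 12, 1 line per animal, anti-miR-33 in orange and control anti-miR in dark grey. RRM2 and TYMS were higher at week 12 than at baseline in all 12 animals, and RRM1 was lower in 11; axes differ between panels and do not start at 0.

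The quality of the labelled RNA and markers of other liver cells moved together with these changes. How far the labelled RNA extends was read from the control probe sets for GAPDH and ACTB, as their 3′ minus 5′ value. Over the 12 animals it averaged 2.57 ± 0.43 before dosing, then 1.94 ± 0.41 after 4 weeks and 1.83 ± 0.16 by week 12 (± SD). With it as a covariate, 2 of the 9 members kept their call, RRM2 at 1.38 ± 0.32 (adjusted p = 0.0058) and CDK1 at 0.42 ± 0.13 (adjusted p = 0.0444). TYMS then stood at 0.29 ± 0.14 (adjusted p = 0.254), PCNA at 0.22 ± 0.14, RRM1 at -0.30 ± 0.14, GINS1 at 0.20 ± 0.11 and MCM7 at -0.10 ± 0.09. MCM2 (0.18 ± 0.09) and POLE2 (0.27 ± 0.11) also lost their calls, at differences close to or above those without the covariate, and MKI67 stood at 0.24 ± 0.10 (adjusted p = 0.172). In that fit 5.62% of all genes passed. Within groups, the correlation with this value over 36 arrays was -0.52 for TYMS, 0.54 for MCM7, 0.25 for RRM2 and 0.06 for CDK1, given as a description. Among markers of other liver cells, 7 of 9 endothelial genes were lower at week 12 (median -0.72), as were 4 of 8 stellate cell, 3 of 8 macrophage and 2 of 6 erythroid genes, while 0 of 12 hepatocyte genes changed by the test. Over all genes 16.5% were lower. The mean of the 6 erythroid markers was 6.67 ± 0.11 at week 12 in anti-miR-33 livers, against 7.02 ± 0.16 at baseline, and 6.71 ± 0.23 at week 12 in control livers, against 7.10 ± 0.27 at baseline (SD, n = 6). The mean of the 9 endothelial markers lay between 6.14 and 6.60 at week 12 in anti-miR-33 livers, against 6.61 to 7.06 at baseline, and between 6.27 and 6.42 at week 12 in control livers, against 6.75 to 7.16 at baseline. T and NK cell markers passed in 0 of 7 tested genes and 8 of 11 lay near background. Of 6 tested cholangiocyte markers 1 was higher and 0 lower (median 0.20), and of 2 neutrophil markers 1 was higher and 0 lower (median 0.15). B and plasma cell markers passed in 0 of 5. Over all genes 10.9% were higher. The part of the marker genes in the members' changes was not tested.

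**Figure D3:**
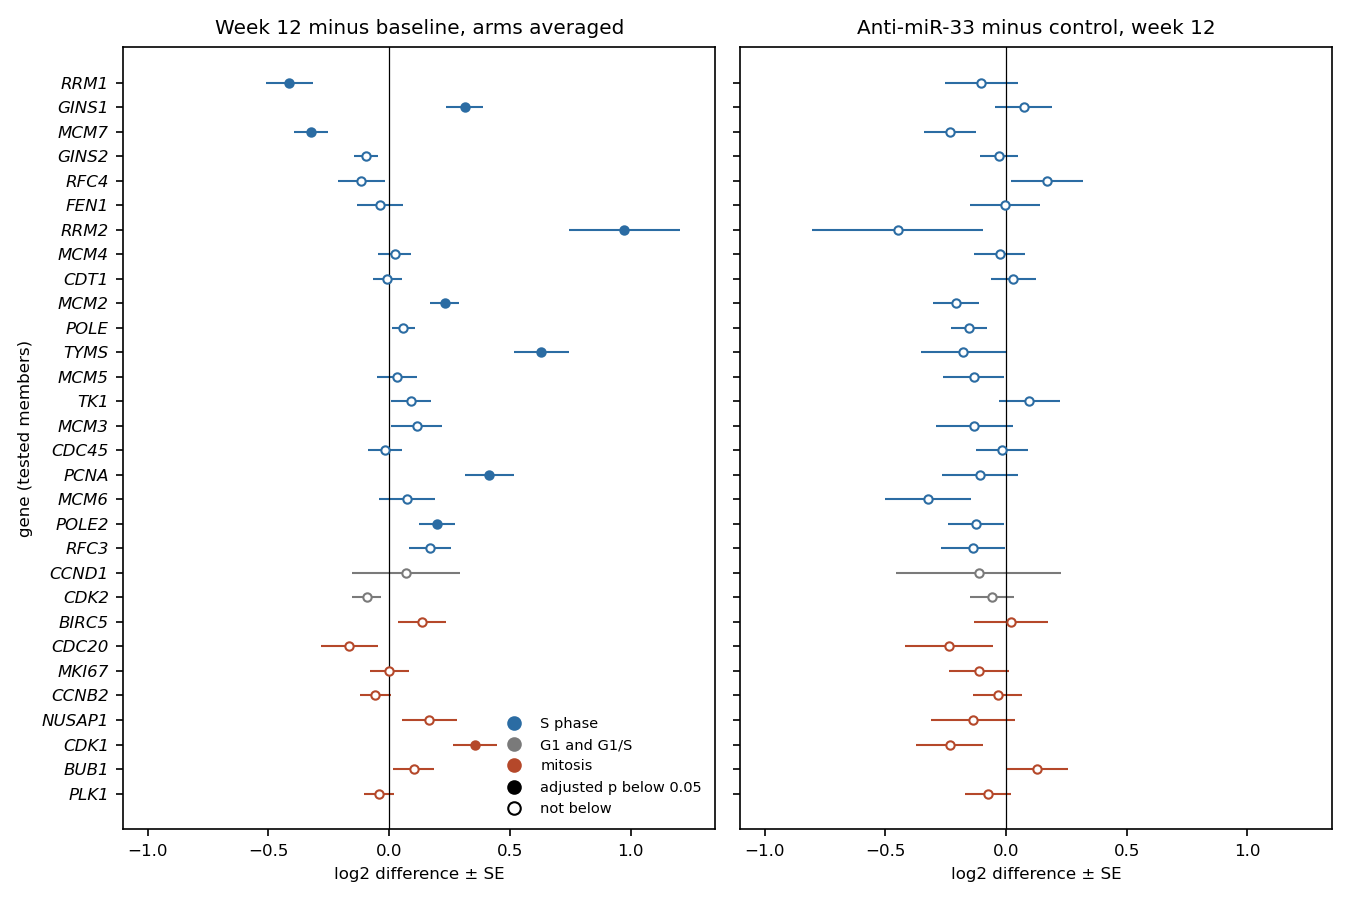
Log2 difference ± SE of the 30 tested members, in week 12 minus baseline with arms averaged (left) and in anti-miR-33 minus control at week 12 (right); colours give the class and filled points an adjusted p below 0.05. On the left 7 genes lie above 0 and 2 below with filled points, and on the right no point is filled.

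At week 4 most of the members that passed were lower by their chosen probe sets. From baseline to week 4, 5 of the 30 passed, or 16.7%, against 35.7% of all genes. The median difference was 0.01 over the S phase genes and 0.05 over the mitosis genes, against -0.01 over all genes tested. Over the 10 S phase genes above background it was -0.13, with 3 of 10 above 0. RRM1 (-0.65 ± 0.10, adjusted p = 4.37e-06), RFC4 (-0.56 ± 0.10, adjusted p = 3.30e-05), CDT1 (-0.34 ± 0.06, adjusted p = 5.36e-05) and FEN1 (-0.36 ± 0.09, adjusted p = 0.00358) were lower, and CCNB2, cyclin B2, was higher (0.22 ± 0.06, adjusted p = 0.00829). Among all genes 15.1% were higher and 20.6% lower. With the second probe set of each gene only RFC4, which has no other, kept its call: FEN1 then stood at -0.14 (adjusted p = 0.192), CCNB2 at 0.05, and RRM1 and CDT1 were higher (each 0.25). With the 3′ minus 5′ value as a covariate all 5 kept it. Markers of endothelium moved in this interval too, 7 of 9 lower and 1 higher (median -0.57), and 5 of 8 macrophage and 3 of 8 stellate cell genes were lower. Of 6 cholangiocyte genes 2 were higher and 1 lower, and of 7 T and NK cell genes 1 was higher and 2 lower. Higher alone were 2 of 2 neutrophil, 1 of 6 erythroid and 1 of 5 B and plasma cell genes. The part of these markers was not tested. RFC4 was lower in all 12 animals, with medians of 6.41, 5.86 and 6.34 at the 3 times in anti-miR-33 livers and of 6.33, 5.91 and 6.10 in control livers. FEN1 had medians of 6.11, 5.94 and 6.21 in anti-miR-33 livers and of 6.26, 5.70 and 6.08 in control livers, where the week 4 values (5.68 to 5.95) lay under all baseline values (6.00 to 6.36). TYMS, PCNA, MCM2, CDK1, CCND1 and MKI67 had differences of 0.19, 0.07, 0.12, 0.14, -0.33 and -0.04 by their chosen probe sets, none past the threshold. By its second probe set, whose mean was 6.78, CCND1 stood at -0.46 ± 0.16 and passed (limma adjusted p = 0.0304).

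From week 4 to week 12, 8 of the 30 passed, or 26.7%, against 27.6% of all genes. GINS1 (0.40 ± 0.08, adjusted p = 0.000245), CDT1 (0.33 ± 0.06, adjusted p = 0.000172), RFC4 (0.45 ± 0.10, adjusted p = 0.000962), TYMS (0.44 ± 0.11, adjusted p = 0.00416), FEN1 (0.32 ± 0.09, adjusted p = 0.0114) and PCNA (0.34 ± 0.10, adjusted p = 0.0120) were higher. CCNB2 was lower (-0.28 ± 0.06, adjusted p = 0.00185), as was MCM7 (-0.19 ± 0.07, adjusted p = 0.0424), whose call was kept in 5 of the 12 fits without 1 animal. The 6 higher genes are members of the S phase class, and among all genes 13.7% were higher and 13.9% lower. The median difference was 0.14 over the S phase genes and 0.02 over the mitosis genes, against 0.0075 over all genes tested. Over the 10 S phase genes above background it was 0.28, with 8 of 10 above 0. Whether the classes differed was not tested. CDK1 stood at 0.22 by the chosen probe set, which passed with the animal as a fixed term (limma adjusted p = 0.0482). By its second probe set, whose mean of 4.23 lay under the filter, it stood at 0.39 (limma adjusted p = 0.00267). Of further genes of the pathway, 6 of 16 tested mitosis genes were higher and 0 lower in this interval, among them BUB3 (0.28 ± 0.05), a spindle checkpoint protein, and 7 of 27 replication genes were higher and 1 lower, among them RFC5 (0.69 ± 0.10). By their chosen probe sets, RFC4, CDT1, FEN1 and CCNB2 thus departed at week 4 and stood near baseline again at week 12. Their differences from baseline to week 12 did not pass the threshold. Second probe sets of CDT1 moved in the opposite direction (0.25 to week 4 and -0.19 after it, adjusted p = 0.00336 and 0.0257), and that of CCNB2 gave 0.27 after week 4, so these directions rest on the choice of probe set. The week 4 arrays are the ones with array numbers of their own, and a part of that run in these differences was not tested.

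Between anti-miR-33 and control livers, 0 of the 30 tested members passed at baseline, at week 4 or at week 12 by limma, and 0% of all genes passed at each time. At an unadjusted p below 0.05 there were 531, 662 and 414 of the 13634 genes and 3, 1 and 3 of the members. At week 12, 4 of 20 S phase genes and 2 of 8 mitosis genes had a higher mean in anti-miR-33 livers, with median differences of -0.12 and -0.09, against -0.0017 over all genes. At week 4, 6 of 20 and 3 of 8 did (medians -0.02 and -0.04), and at baseline 9 of 20 and 3 of 8 (medians -0.02 and -0.03).

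The member with the smallest p at week 12 was MCM2, which ran from 5.44 over a median of 5.72 to 5.91 in anti-miR-33 livers and from 5.58 over 6.02 to 6.27 in control livers. The arms overlapped and the difference was -0.21 ± 0.09 (adjusted p = 0.998). MCM7 ran from 6.38 over 6.54 to 6.70 in anti-miR-33 livers and from 6.37 over 6.82 to 6.96 in control livers, a difference of -0.23 ± 0.11, and POLE differed by -0.15 ± 0.07 (adjusted p = 0.998 for both). Of the higher members, RFC4 (0.17 ± 0.15), BUB1, a spindle checkpoint kinase (0.13 ± 0.13), and TK1, thymidine kinase (0.10 ± 0.13), had the smallest p. CDK1 (-0.23 ± 0.14), TYMS (-0.18 ± 0.18), PCNA (-0.11 ± 0.16), MKI67 (-0.11 ± 0.12) and TOP2A (0.07, not tested) also lay within the spread. MCM5 differed by -0.13 by the chosen probe set and by -0.56 by its second one, whose mean of 5.09 lay near background. The SE of that second value is not given here.

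At week 4 the largest arm difference was that of RRM2, -0.77 ± 0.35 (adjusted p = 0.998). Its values ran from 4.72 to 6.97 in anti-miR-33 livers and from 5.49 to 7.36 in control livers, which overlapped. BUB1 (-0.19 ± 0.13) and PCNA (-0.19 ± 0.16) had the next smallest p among lower means, and FEN1 (0.22 ± 0.15), CDC45 (0.16 ± 0.11) and MCM5 (0.18 ± 0.13) had the smallest p among higher ones. At baseline, before any dose, POLE (0.17 ± 0.07), CDK2 (-0.21 ± 0.09) and GINS1 (-0.25 ± 0.12) gave the smallest p, and the arm differences of the tested members ran from -0.27 to 0.17. Differences between arms in the changes to and from week 4 called 0 members and 0% of all genes (478 and 487 genes at an unadjusted p below 0.05).

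CCND1 and CDK6, the G1 genes reported as miR-33 targets in human and mouse cells, did not pass between arms at any time. CCND1 ran from 7.76 over a median of 8.66 to 9.00 at week 12 in anti-miR-33 livers and from 7.54 over 8.74 to 9.47 in control livers, with differences of -0.09 ± 0.34, -0.01 ± 0.34 and -0.11 ± 0.34 at baseline, week 4 and week 12. Its values at baseline spread from 7.34 to 10.23 in control livers, the widest range of any member in a group. By this probe set only a large change could thus have been seen. The second probe set of CCND1, whose mean was 6.78, gave -0.05, 0.16 and -0.085 at baseline, week 4 and week 12. CDK6, which is no member of the set, averaged 6.90 ± 0.12 in anti-miR-33 livers and 6.75 ± 0.33 in control livers at week 12 (SD, n = 6), a difference of 0.16 ± 0.15 (limma adjusted p = 0.998). At baseline and week 4 it differed by -0.15 ± 0.15 and 0.02 ± 0.15. CDK2, the kinase of the G1/S transition, differed by -0.06 at week 12.

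At week 12, 2 control animals carried most of the highest values. Control animal 1 had the highest of the 12 arrays in 12 of the 30 tested members (40.0%) and control animal 5 in 10 (33.3%), whereas they were highest in 9.70% and 7.42% of all tested genes. Of these members 9 and 7 were of S phase and 2 and 2 of mitosis. RRM2 measured 7.90 and 7.80 in these animals and at most 7.02 in the others. CDK1 measured 5.79 and 5.85, MCM6 5.66 and 5.87, NUSAP1, a spindle protein, 6.02 and 5.65, and PCNA 5.76 and 5.63, each above the other 10 arrays of that week. Control animal 5 was also highest in 8 members at baseline (26.7%, against 11.5% of all genes) and control animal 1 in 4, but at week 4 they were highest in 2 and 6.

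The mean of the 20 S phase genes at week 12 was 5.73 ± 0.08 in anti-miR-33 livers and 5.83 ± 0.25 in control livers (SD, n = 6), with 6.15 and 6.09 in control animals 1 and 5 and at most 5.86 in the other control animals. The mean of the 8 mitosis genes was 5.11 ± 0.14 in anti-miR-33 livers and 5.19 ± 0.17 in control livers. Without control animal 1 the median arm difference of the S phase genes at week 12 was -0.04 with 8 of 20 above 0, and without control animal 5 it was -0.04 with 6 above 0, against -0.12 and 4 with all animals. For mitosis genes it was -0.08 and -0.03 without them, against -0.09. The week 12 array of control animal 5 also had the lowest hepatocyte marker mean of all arrays, 12.25, and without that array alone the S phase median was -0.03. Counts of called members over time changed by at most 1 when either animal was left out.

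**Figure D4:**
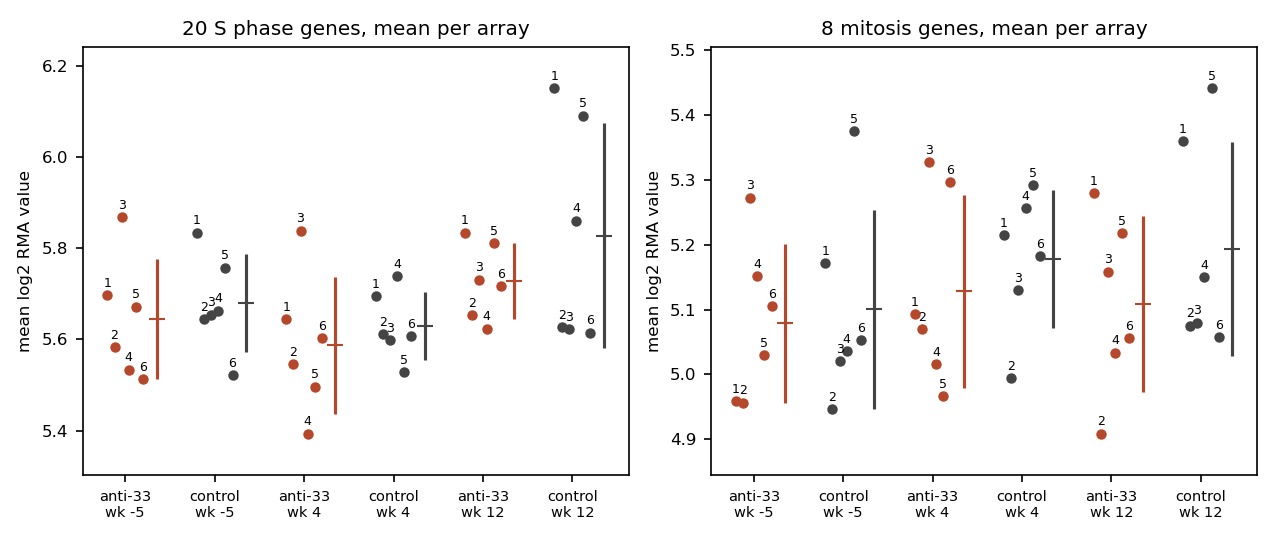
Mean log2 RMA value per array of the 20 tested S phase genes (left) and the 8 tested mitosis genes (right), by group; digits number the animals, and bars give the group mean ± SD (n = 6). Control animals 1 and 5 at week 12 hold the highest S phase means, 6.15 and 6.09, and the highest mitosis means of that week.

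The mean correlation across arrays was higher between members than between all tested genes. After each group's mean was removed, the mean Pearson correlation over the 36 arrays was 0.22 between S phase genes, 0.18 between mitosis genes and 0.16 between the classes, against 0.01 between all tested genes. These are descriptions: arrays of 1 animal share that animal, and both members of a pair share each array's RNA. RMA takes out shifts common to most probe sets of an array, which keeps the mean over all genes low. Other gene sets were not compared. The closest pairs were MCM6 with FEN1 (0.76), RRM2 with CDK1 (0.74), RRM2 with NUSAP1 (0.73) and MCM6 with POLE2 (0.73). The week 12 arrays of control animals 1 and 5, high in several of these genes, were kept. In control livers at week 12 the SD was 0.58 for MCM6 and 0.44 for CDK1, against at most 0.27 in any other group. For RRM2 it was 0.91 against at most 0.77, and for FEN1 0.34 against up to 0.36. The part of these arrays in the correlations was not tested. BUB1 and GINS1 ran against each other (-0.47). Over all 13634 genes the one most like RRM2 was PTTG1 (0.86), which encodes securin, the inhibitor of sister chromatid separation, followed by CKS2 (0.82), a subunit that binds cyclin-dependent kinases. CDK1 was most like CKS2 (0.83), PTTG1 (0.74), RRM2 (0.74) and NUSAP1 (0.72). TYMS and GINS1 had other neighbours, CLNS1A (0.76) and NDUFAF1 (0.77) first, with no member among the 5 nearest. RRM2, MCM2, PCNA, RRM1, MCM7 and CCND1 had no member among their 5 nearest either, and the third for RRM2 was SPTAN1 (0.80).

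Other genes of the pathway were counted from 4 lists. From baseline to week 12, when 10.9% of all genes were higher and 16.5% lower, 5 of 16 tested further mitosis genes were higher and 0 lower: SMC4 (0.57 ± 0.11), a condensin subunit, CKS2 (0.51 ± 0.14), CKS1B (0.29 ± 0.07), UBE2C (0.28 ± 0.09) and CDCA3 (0.24 ± 0.08). PTTG1 stood at 0.24 ± 0.11 (adjusted p = 0.0903). Of the 41 genes of that list, 34 lay near background. Of 27 tested further replication genes, RFC5 (0.38 ± 0.10), of the clamp loader, and RPA2 (0.23 ± 0.06), of the single-strand binding complex, were higher and DUT (-0.19 ± 0.07), the dUTPase, was lower. Of 15 G1 cyclin, kinase, E2F and RB family genes, E2F4 (0.23 ± 0.05), RB1 (0.22 ± 0.08) and CCNE1 (0.19 ± 0.07) were higher and TFDP1 (-0.36 ± 0.10), RBL2 (-0.32 ± 0.07) and CCND2 (-0.26 ± 0.09) lower. Of 9 tested inhibitors of cyclin-dependent kinases and growth arrest genes, 4 were higher and 1 lower. The arm comparisons called 0 genes of any of these lists at any time.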

How the data were processed

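Liver RNA of 12 monkeys at 3 times was hybridised to 36 human HG-U133 Plus 2.0 arrays. RNA was isolated with Trizol, then labelled with biotin by an Enzo method, per the labels' protocols. The authors deposited log2 values for 54675 probe sets, made by RMA per the submitters' processing notes (background correction, normalization between arrays, summary per probe set); its version is not given in the sources used here. RMA takes out any shift that most probe sets of 1 array have in common.

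Symbols came from the platform annotation: 41097 probe sets had 1 gene, 1801 several and 11777 were unnamed. Genes were tested with limma 3.58.1 in R 4.3.3, on the log2 scale, with a mean for each of 6 groups and animal as random block (correlation 0.15), which pairs the 3 arrays of an animal by its label. A gene was tested where its probe set of highest mean reached the median of all probe sets (4.46); 13634 genes passed. P-values were two-sided and adjusted by Benjamini-Hochberg over these genes, with a threshold of 0.05. The fit was tested on simulated data. Replicates were separate animals.

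The members and lists were chosen with earlier results of these data known. Members called in a comparison were described, otherwise the 3 of smallest p in each direction, with MCM2, PCNA, TYMS, CCND1, CDK1, MKI67 and TOP2A in every comparison. From the lists, at most 5 called genes of smallest p in each direction were named; PTTG1 was named after its values were seen. Sequences and promoters were not analysed here. Alternatives covered the block, the filter, renormalization, the 3′ minus 5′ value as a covariate, the probe set, the prior variance, the arrays in the fit and leaving out each animal. The alternatives without the week 4 array of control animal 1 and with the second probe set were chosen after seeing the data.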

Additional observations from a re-analysis of the deposited data

Results flagged for a closer look

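In groups of 6 arrays, 150 groups (23 named members and the 2 class means, each in 6 groups) were examined for an array far from the others (Dixon's test at the 95% level), and 11 groups, or 7.33%, held such an array; chance alone marks about 1 in 20 groups. 4 of the 11 concerned control animals 1 or 5 at week 12 or control animal 1 at week 4, whose diet label differs. At week 12 MCM5 measured 5.92 in control animal 1, against 4.97 to 5.29 in the other control livers, and CDT1 measured 6.28 in control animal 5, against 5.87 to 5.98. At week 4 control animal 1 had 6.08 for TYMS, against 4.85 to 5.21 in the others, and 8.95 for CDK2, against 8.35 to 8.44.

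The others were spread over animals. BIRC5 measured 5.65 in anti-miR-33 animal 2 at week 12 (others 6.26 to 6.50), TK1 measured 4.90 in anti-miR-33 animal 6 (5.27 to 5.43) and CDK1 5.54 in anti-miR-33 animal 1 (4.77 to 5.04). MCM2 measured 5.37 in anti-miR-33 animal 4 at week 4 (5.70 to 5.83), and FEN1 5.95 in control animal 6 at week 4 (5.68 to 5.72). At baseline TYMS measured 4.67 in control animal 3 (4.99 to 5.16) and RRM1 7.31 in control animal 6 (7.52 to 7.63).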

How the results depend on the processing

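The 9 comparisons were recomputed under each alternative. Of 213 recomputed counts of called members, 209 stayed within 1.5 times the count reported. Most of them belong to comparisons between arms or differences in change, where the count reported was 0, so this share says little about the calls over time. A count can also stay while its genes change. With the probe set of second highest mean, 1 of the 5 members called from baseline to week 4 kept its call. For week 4 to week 12 it was 5 of 8, and for baseline to week 12 it was 5 of 9. From baseline to week 12, 9 members were called, against 2 with the 3′ minus 5′ value as a covariate and 5 with the filter at the olfactory receptor cutoff, which tests fewer genes. From week 4 to week 12, 8 were called, against 5 with that filter and 5 with the mean of all probe sets of a gene. With each animal left out in turn the counts ran from 8 to 10 (baseline to week 12), from 5 to 6 (baseline to week 4), from 7 to 9 (week 4 to week 12) and stayed at 0 for the arm comparisons and differences in change. Directions of called members turned only with the probe set of second highest mean: RRM1 gave 0.28 to week 12 and 0.25 to week 4, CDT1 0.25 to week 4 and -0.19 after it, and CCNB2 0.27 after week 4; the cause was not tested. With the animal as a fixed term (the replicate block), 8 members were called from baseline to week 12 and 10 after week 4, and without a block 8 and 7; POLE2 lost its call in both (adjusted p = 0.0539 and 0.0728). The block changed no count of calls by over 1.5 times. Without the week 4 array of control animal 1, chosen after seeing the data, 9 members, against 8, were called from week 4 to week 12, and no call of a named member was lost. Of the 30 tested members 16 lay near background, where a small difference could not have been measured well.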

Other observations

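Genes that hold the cell cycle back were among those that changed over time. From baseline to week 12, of 9 tested inhibitors of cyclin-dependent kinases and growth arrest genes, 4 were higher by limma: GADD45B (0.85 ± 0.19, adjusted p = 0.000648) and GADD45A (0.44 ± 0.11, adjusted p = 0.00233), which are induced by stress, CCNG2 (0.47 ± 0.07, adjusted p = 1.15e-05), cyclin G2, and BTG1 (0.46 ± 0.10, adjusted p = 0.000958), an antiproliferative factor. CDKN1C, which encodes the inhibitor p57, was lower (-0.33 ± 0.06, adjusted p = 2.30e-05). After week 4, TOB1, another antiproliferative gene, was also higher (0.54 ± 0.13, adjusted p = 0.00226). The median over the 9 genes was 0.27 from baseline to week 12, against -0.01 over all tested genes, and 10.9% of all genes were higher and 16.5% lower. With the 3′ minus 5′ value as a covariate 5.62% of all genes passed in that interval, and values of these 9 genes from that fit are not given here. Between arms 0 of the 9 passed at any time, with medians of -0.02, 0.04 and 0.01 at baseline, week 4 and week 12.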
